A study of Drosophila melanogaster with 8 samples.

Results

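The proteasome subunit genes of Drosophila melanogaster were taken by their names, as every listed gene whose name begins with Prosalpha, Prosbeta, or Rpn or Rpt followed by a digit. This rule found 42 of 13656 listed genes. Of these, 14 encode the canonical subunits of the core particle (7 of the alpha ring and 7 of the beta ring) and 18 those of the regulatory particle. The 18 are 6 ATPases (Rpt), 4 scaffold subunits and ubiquitin receptors of the base (Rpn1, Rpn2, Rpn10 and Rpn13) and 8 lid subunits. The other 10 are paralogs, whose names carry a T or an R after the name of a canonical subunit.

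The proteasome is the protease that degrades ubiquitin-tagged proteins in the cytosol and nucleus. Its core is a barrel in which beta rings carry the cutting sites and alpha rings form the gate. The regulatory particle caps the barrel, recognises ubiquitin through its base, removes the tags through its lid and threads the substrate into the core with its ring of ATPases. In animal cells the subunit genes are known to be transcribed together, in vertebrates under Nrf1, a relative of the fly factor cnc. Dipeptide repeats made from the C9orf72 expansion have been found with proteasomes in cell models.

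RNA was sequenced from heads of females at 5 days of age, kept at 24 °C, in which the Elav driver, active in neurons, expressed a transgene. PA36, a proline-alanine dipeptide repeat, is named as the control in the labels, PR36 is a proline-arginine repeat, (G4C2)36 is the GGGGCC hexanucleotide repeat, and UPF1 RNAi targets Upf1, a helicase of nonsense-mediated mRNA decay. Every group carried the driver, and no group without a transgene was among the samples. PA36, PR36 and (G4C2)36 each had 2 libraries. UPF1 RNAi also has 2 samples, of which 1 had a named column of values and was analysed here. All were made from pooled heads, and no label says that replicates were separate cultures. The p-values therefore measure only how these libraries differed, which may be technical. Where a genotype has a pair of values below, replicate 1 comes first. A head holds neurons and many other cells, so a change in neurons is diluted, and fewer cells of a type cannot be told apart from less RNA per cell.

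The values are TPM, a length-normalized share of reads that keeps no read number, so the depth of the libraries is unknown. Listed TPM summed to 712972 to 877933 per library and was highest in (G4C2)36 replicate 1. Library pairs correlated with r of 0.924 to 0.951 across genes, which are not independent replicates. All 11 fixed neuron markers were listed, with summed TPM of 1210 in PA36 replicate 1 to 1810 in (G4C2)36 replicate 1. Photoreceptor markers (7 of 8 listed) summed to 33800 to 46800 TPM, glia markers to 1120 to 1790 TPM and muscle markers to 1190 to 2800 TPM. Fat body and yolk markers ranged from 38700 to 128000 TPM, highest in (G4C2)36 replicate 2. The 18 heat shock genes summed to 8930 TPM in PA36 replicate 1 and 10800 TPM in PR36 replicate 1, against 2370 to 3390 TPM in the other 5 libraries. Upf1 itself was at 11.3 TPM in the library labelled UPF1 RNAi and at 10.3 and 19.1 TPM in PA36. It was at 18.6 and 19.6 TPM in PR36 and 18.2 and 16 TPM in (G4C2)36. The library labelled UPF1 RNAi thus lay below all libraries but PA36 replicate 1. The level of Upf1 does not set it apart from the control, whose replicates lay on either side.

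Every canonical subunit gene was expressed in every library, at levels close to one another. Means over the 7 libraries ran from 18.9 TPM (Prosalpha1) to 80.8 TPM (Prosbeta5), and within each library 30 to 32 of the 32 genes lay within 2-fold of the median. By mean TPM per gene, the median of the beta ring was 72 TPM, that of the ATPases 60.5 TPM, of the alpha ring 56.2 TPM, of the base scaffold and receptors 53.5 TPM and of the lid 53.2 TPM. These levels are per length, which matters because core genes have short coding sequences (603 to 846 bases) and regulatory genes longer ones (792 bases for Rpn12 to 3087 bases for Rpn2).

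**Figure D1:**
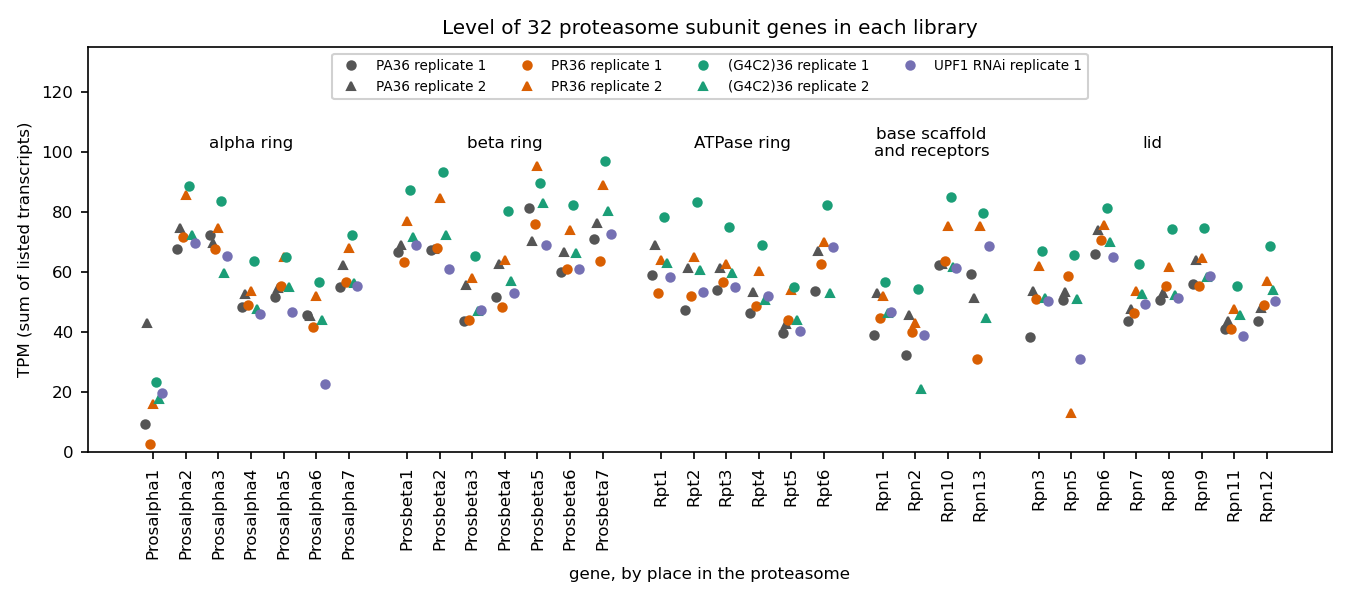
TPM (y axis, linear) of each of the 32 canonical proteasome subunit genes (x axis, grouped by place in the complex) in each library, with 1 point per library, coloured by genotype and shaped by replicate number. Most genes sit between 40 and 100 TPM in all 7 libraries, and Prosalpha6, Rpn2 and Rpn13 have single libraries well below the rest. Rpn5 is low in PR36 replicate 2 (13 TPM) and in the library labelled UPF1 RNAi (30.9 TPM). Prosalpha1 lies at 2.9 to 23.5 TPM in every library but PA36 replicate 2 (43.2 TPM).

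The 3 catalytic subunits were among the most abundant. Prosbeta5, the chymotrypsin-like site, was at 81.4 and 70.5 TPM with PA36, 75.9 and 95.4 with PR36, 89.8 and 83.1 with (G4C2)36 and 69.2 TPM in the library labelled UPF1 RNAi. It ranked 2.0 on average among the 32 genes and was in the top 5 in 7 of 7 libraries. Prosbeta2, the trypsin-like site, was at 67.5 and 67.8 TPM with PA36, 68.1 and 84.7 with PR36, 93.4 and 72.3 with (G4C2)36 and 61.2 TPM in the library labelled UPF1 RNAi. Prosbeta1, the caspase-like site, was at 66.7 and 69.1 TPM with PA36, 63.3 and 76.9 with PR36, 87.4 and 71.7 with (G4C2)36 and 69.1 TPM in the library labelled UPF1 RNAi. For all 3 the first (G4C2)36 library or the second PR36 library was the highest, and replicates of these genotypes lay farther apart than those of PA36 for Prosbeta1 and Prosbeta2. The lowest beta gene was Prosbeta3, at 43.8 and 55.7 TPM with PA36, 44.2 and 58.1 with PR36, 65.3 and 47.2 with (G4C2)36 and 47.5 TPM in the library labelled UPF1 RNAi, and its replicates within each genotype lay farther apart than the means of PA36, PR36 and (G4C2)36.

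In the alpha ring, Prosalpha2 was the highest, at 67.8 and 74.6 TPM with PA36, 71.6 and 85.8 with PR36, 88.6 and 72.3 with (G4C2)36 and 69.8 TPM in the library labelled UPF1 RNAi. It ranked between 2 and 4 in every library. Prosalpha3 followed at 72.2 and 69.6 TPM with PA36, 67.7 and 74.7 with PR36, 83.7 and 59.6 with (G4C2)36 and 65.3 TPM in the library labelled UPF1 RNAi, with both extremes in (G4C2)36. The other alpha genes apart from Prosalpha1 and Prosalpha6 lay between 46 TPM (Prosalpha4) and 72.5 TPM (Prosalpha7).

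Among the ATPases, which unfold the substrate, Rpt6 was the highest at 53.6 and 67.1 TPM with PA36, 62.6 and 69.9 with PR36, 82.4 and 53 with (G4C2)36 and 68.4 TPM in the library labelled UPF1 RNAi. Rpt5 was the lowest, at 39.6 and 42.6 TPM with PA36, 43.9 and 53.9 with PR36, 55.2 and 44 with (G4C2)36 and 40.5 TPM in the library labelled UPF1 RNAi. For Rpt5 both repeat genotypes lay wholly above PA36, narrowly in each case. Rpn6, a lid subunit, was the highest of the Rpn genes and the steadiest member, at 66 and 74.1 TPM with PA36, 70.8 and 75.8 with PR36, 81.3 and 70.2 with (G4C2)36 and 64.9 TPM in the library labelled UPF1 RNAi, a ratio of highest to lowest of 1.25.

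Neighbours in the order of levels were not separated by the libraries. Prosbeta5 had a mean rank of 2.0, Prosbeta7 of 2.4 and Prosalpha2 of 3.0, and the ranges of their TPM overlapped. At the low end, Rpn2 had a mean rank of 29.9 and Prosalpha1 of 31.7.

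The 10 paralogs found by the rule were at or near 0. CG30382, named Prosalpha1R in the reference annotation, fell outside the rule and reached 27.4 TPM in (G4C2)36 replicate 1 (below). Of the 10, Rpt6R was listed at 0 in all 7 libraries, and the median of the 10 mean levels was 0.0799 TPM. Their highest single value was 2.18 TPM, for Rpt4R in (G4C2)36 replicate 1, the library in which alone it was above 0. In fly testis, paralogs of this kind are known to take the place of canonical subunits, and 4 testis markers listed here summed to at most 0.504 TPM. Among the 10, Prosalpha4T1 alone had a mean of at least 1 TPM. It was at 0.629 and 0.837 TPM with PA36, 1.49 and 1.64 with PR36, 1.29 and 1.67 with (G4C2)36 and 1.02 TPM in the library labelled UPF1 RNAi. Its libraries of PR36, of (G4C2)36 and of UPF1 RNAi all lay above those of PA36, but no difference passed the test given below (log2 fold change 0.57, SE 0.37, adjusted p = 1 for PR36, 0.52, SE 0.37, adjusted p = 0.87 for (G4C2)36 and 0.22, SE 0.46, adjusted p = 0.97 for UPF1 RNAi, by limma). It overlaps another gene, CG42322, and no source used here says whether reads were counted by strand.

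The summed level of both particles moved from library to library, also within genotypes. Core genes summed to 791.9 and 871.1 TPM with PA36, 769.8 and 957.2 with PR36, 830.9 in (G4C2)36 replicate 2 and 759.5 TPM in the library labelled UPF1 RNAi, with 1050 TPM in (G4C2)36 replicate 1 as the highest. Regulatory genes summed to 883.4 and 1006 TPM with PA36, 924.2 and 1057 with PR36, 1269 and 941.5 with (G4C2)36 and 938.2 TPM in the library labelled UPF1 RNAi. Together they took 0.219% and 0.251% of listed TPM in PA36, 0.227% and 0.245% in PR36, 0.264% and 0.23% in (G4C2)36 and 0.238% in the library labelled UPF1 RNAi. PA36, PR36 and (G4C2)36 overlapped in all 3 quantities, and the library labelled UPF1 RNAi had the lowest core sum of the 7.

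**Figure D2:**
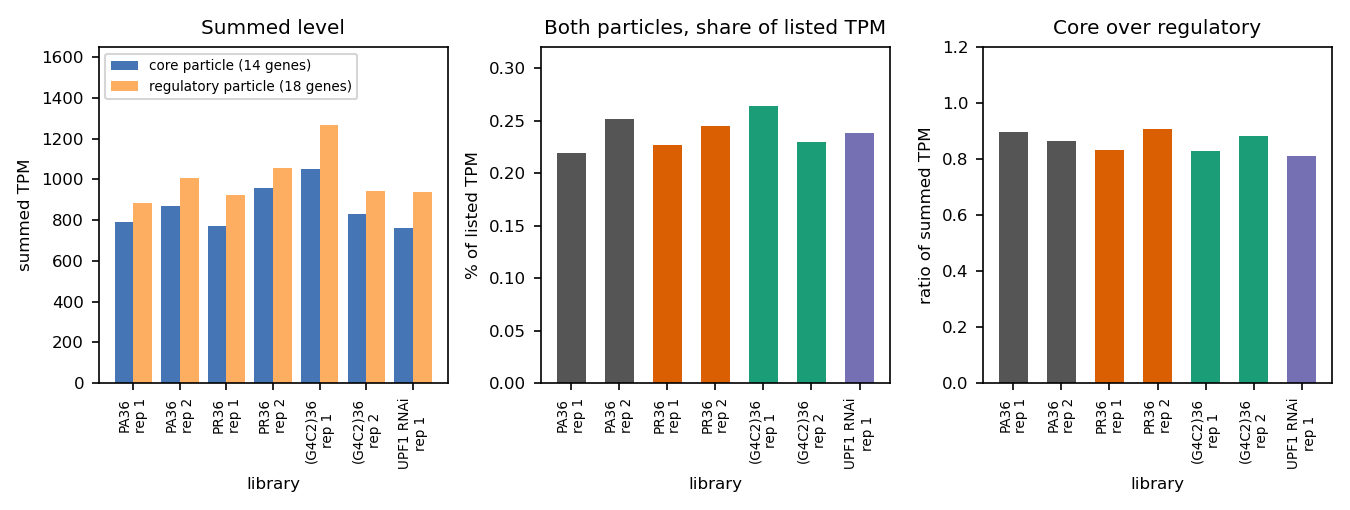
Bars per library (x axis) for the summed TPM of the 14 core and 18 regulatory genes (left), their share of listed TPM in percent (middle) and the ratio of core to regulatory TPM (right), all from 0. Core and regulatory sums are both highest in (G4C2)36 replicate 1, and the ratio stays between 0.81 and 0.906.

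The balance between the particles varied little. The ratio of summed core to summed regulatory TPM was 0.896 and 0.866 in PA36, 0.833 and 0.906 in PR36, 0.827 and 0.883 in (G4C2)36 and 0.81 in the library labelled UPF1 RNAi, with PA36, PR36 and (G4C2)36 overlapping. Taken instead as the difference of the median log2(TPM + 1) of core and of regulatory genes, the balance was 0.23 and 0.27 in PA36, 0.19 in both PR36 libraries, 0.18 and 0.15 in (G4C2)36 and 0.16 in the library labelled UPF1 RNAi. By this measure both PA36 libraries lay above the other 5, while the ratio of sums did not separate them. The difference from PA36 in the median fold change of core minus regulatory genes was -0.07 for PR36, -0.05 for (G4C2)36 and -0.08 for UPF1 RNAi, and that of PR36 was 0.03 without PA36 replicate 1, so its direction rests on that library.

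The subunit genes differed less between libraries than most genes did. The SD of log2(TPM + 1) over the 7 libraries had a median of 0.18 over the 32 genes (0.17 for core and 0.19 for regulatory genes), and of 0.26 over all 9287 genes that averaged 1 TPM or more. It was below 0.25 for 25 of 32 subunit genes (78.1%) and for 46.9% of all those genes. The genes compared were not matched for level, and the part of level in this difference was not tested. In (G4C2)36 replicate 1, 30 of the 32 genes had their highest value, as did 42.9% of all genes. The median deviation of the subunit genes from their own means was 0.31 in that library, and that of all genes 0.23. In the other libraries the medians were -0.14 and 0.01 in PA36 (all genes -0.14 and 0.01), -0.10 and 0.12 in PR36 (all genes -0.02 and 0.12), -0.03 in (G4C2)36 replicate 2 (all genes -0.12) and -0.12 in the library labelled UPF1 RNAi (all genes 0.02). The median over the subunit genes thus sat within 0.14 of the median of all genes in each library, while single genes, described below, lay much farther away.

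**Figure D3:**
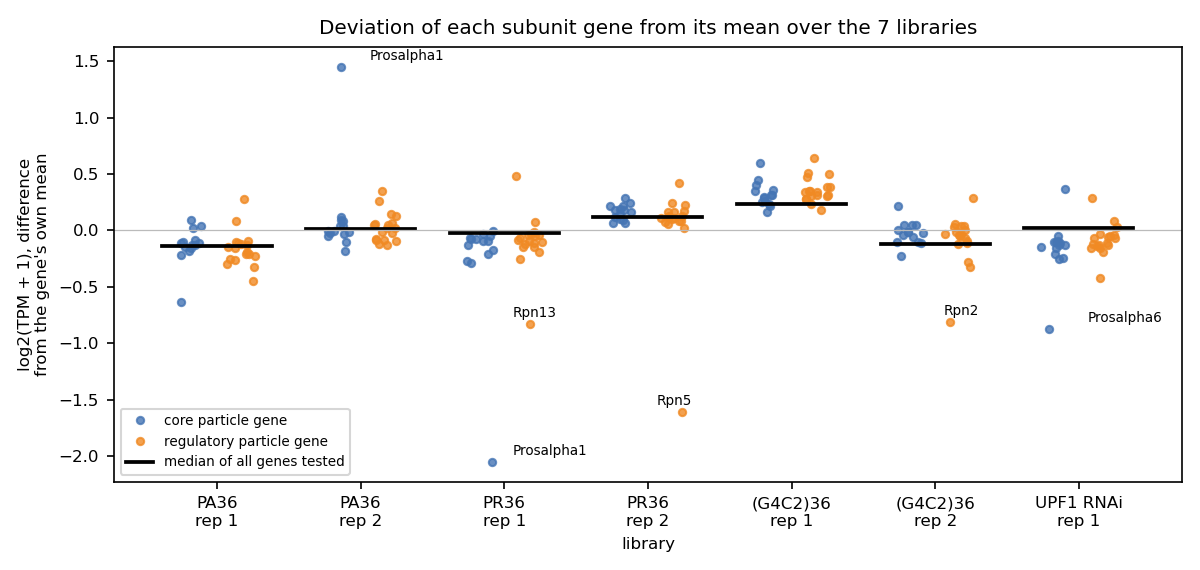
Difference of log2(TPM + 1) from the gene's own mean over the 7 libraries (y axis) for each subunit gene (points, coloured by particle) in each library (x axis), with a black line at the median over all genes tested. Most points follow the line from library to library, and those named lie more than 0.75 from their mean.

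Replicates of a genotype differed in the same direction for most members. In PA36, 28 of 32 genes were lower in replicate 1, with a median difference of -0.13 on the log2 scale, against -0.15 over all genes. In PR36, 31 of 32 were lower in replicate 1, with a median of -0.26 against -0.15 over all genes. In (G4C2)36, 32 of 32 were higher in replicate 1, with a median of 0.36 against 0.34 over all genes. PA36 replicate 1 and PR36 replicate 1 are the libraries with high heat shock genes, and the part of that difference in the subunit genes was not tested.

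Against PA36, no subunit gene passed the test in PR36. Genes were tested as log2(TPM + 1) with limma, over all 9287 genes and all 7 libraries, and called at a Benjamini-Hochberg adjusted p below 0.05. PR36 had 0 of 33 members called, where 0.194% of all genes were called. The 33 are the 32 canonical genes and Prosalpha4T1, the 1 paralog found by the rule that was tested. Of all 9287 genes, 315 had an unadjusted p below 0.05, as did 0 of the 32 canonical genes. The smallest adjusted p among them was 1. Fold changes of the 32 genes had a median of 0.08, with 26 above 0 (81.2%, against 72.5% of all genes). The median of all genes was 0.13, and 10 of 32 exceeded that median. By particle, the median was 0.04 for core and 0.11 for regulatory genes. Rescaled by the median of ratios, these medians turned to -0.09 and -0.02 (all genes 0.007). With listed TPM rescaled to the same sum they were -0.01 and 0.06 (all genes 0.082). Their direction against 0 therefore depends on the scaling, while both stayed below the median of all genes under these scalings. The core median was 0.22 without PR36 replicate 1 (all genes 0.205) and -0.06 without PR36 replicate 2 (all genes 0.057). The regulatory median was -0.02 without PA36 replicate 1 (all genes 0.040).

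In 6 of 32 genes both PR36 libraries lay above both PA36 libraries (Rpn8, Rpn10, Prosalpha5, Prosbeta2, Rpt5 and Rpn12), and in 0 both lay below. Over all genes, 27% lay wholly above and 6.72% wholly below. The highest fold change was that of Rpn3, a lid subunit, at 38.3 and 53.6 TPM in PA36 and 51 and 61.9 TPM in PR36 (log2 fold change 0.30, SE 0.26, adjusted p = 1 by limma), with groups that overlapped. It was 0.07 without PA36 replicate 1, the library in which Rpn3 is carried by another transcript (below), 0.54 without PA36 replicate 2 and 0.17 without PR36 replicate 2. It was at 67 and 51.5 TPM in (G4C2)36 and 50.3 TPM in the library labelled UPF1 RNAi. The 95% interval of the fold change lay within 1 of 0 on the log2 scale for 28 of the 32 genes (87.5%, against 68.6% of all genes). A 2-fold change of those 28 therefore lies outside their intervals. The intervals are per gene, not adjusted over the 32 genes, and reflect only how these libraries differed. The 4 genes with wider intervals were Rpn5, Rpn2, Rpn13 and Prosalpha1.

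**Figure D4:**
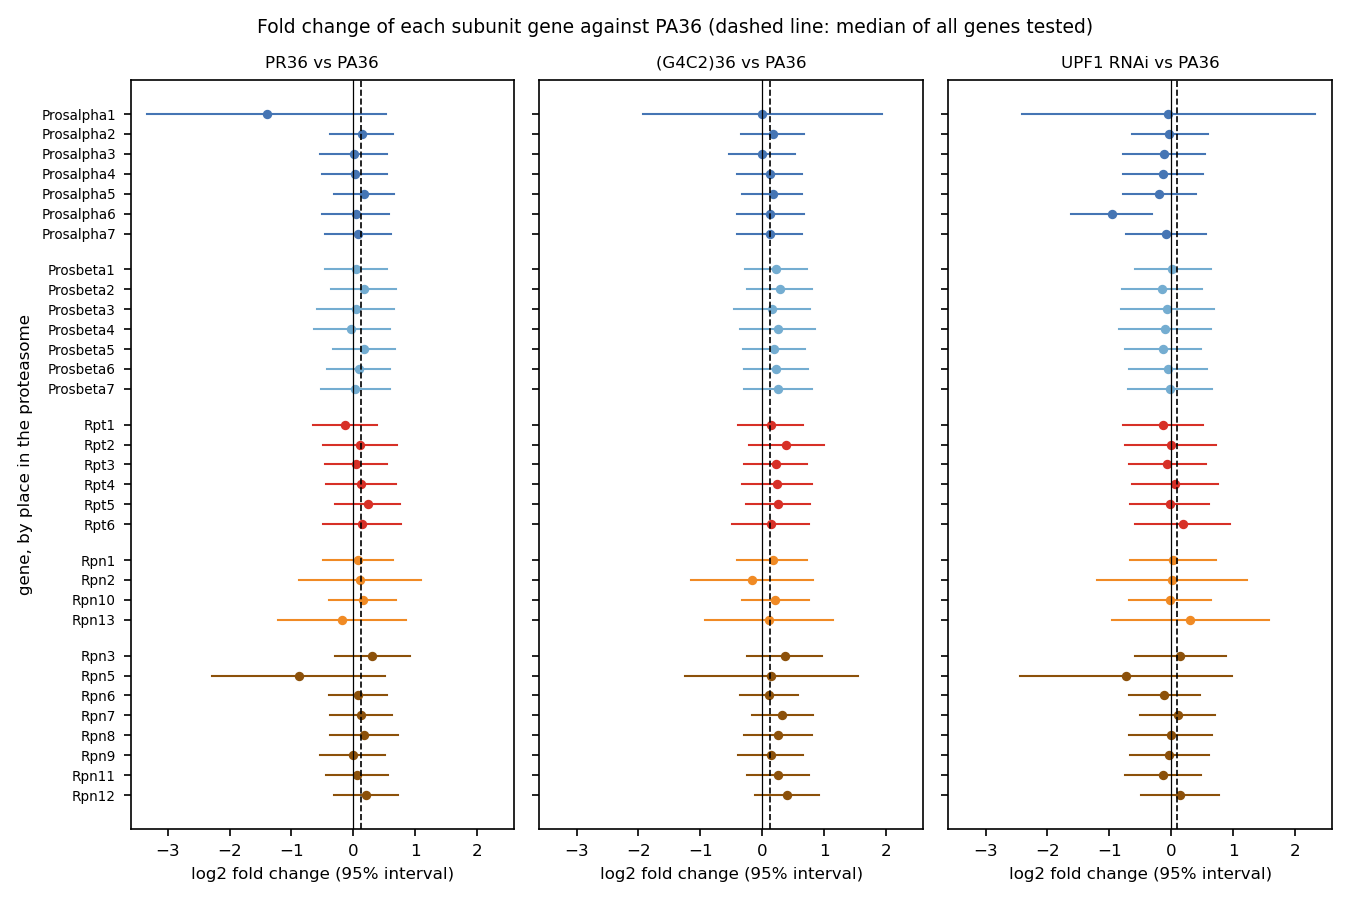
log2 fold change on the log2(TPM + 1) scale against PA36 (x axis) with its 95% interval from limma for each canonical subunit gene (y axis, by place in the complex) for PR36, (G4C2)36 and UPF1 RNAi (1 library). Solid lines mark 0 and dashed lines the median of all genes (0.13, 0.13 and 0.10), and the intervals of Prosalpha1, Rpn2, Rpn13 and Rpn5 are the widest.

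In (G4C2)36 against PA36 the subunit genes were mostly above 0 in fold change, and none passed the test. Of 33 members, 0 were called, where 0.388% of all genes were. An unadjusted p below 0.05 was found for 627 of all 9287 genes and 0 of the 32 canonical genes (smallest adjusted p = 0.83 by limma). The median fold change of the 32 was 0.18, against 0.13 for all genes, and 30 lay above 0, as did 69% of all genes. The lid had a median of 0.25, the ATPases of 0.23, the beta ring of 0.22, the base scaffold and receptors of 0.14 and the alpha ring of 0.13. Without (G4C2)36 replicate 1 the median of core genes moved from 0.17 to 0.01 and that of regulatory genes from 0.21 to 0.02, and that of all genes to -0.03. That library also has the highest sum of listed TPM, and with listed TPM rescaled to the same sum the core median was 0.05 and the regulatory median 0.09, with 0.02 for all genes. Of the muscle markers in the same comparison, 5 of 5 tested had fold changes above 0 and 4 an unadjusted p below 0.05, with 0 called, and their summed TPM was highest in the (G4C2)36 libraries (2800 and 2390, against 1190 to 1760 in the other 5). Fat body and yolk markers had fold changes above 0 in 6 of 6, 3 with an unadjusted p below 0.05 by limma. Their median was 1.09, against 0.64 for muscle. Fold changes were above 0 for 9 of 11 neuron, 5 of 6 glia, 5 of 7 photoreceptor and 1 of 4 hemocyte markers. The part of any of these markers in the subunit values was not tested.

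Both (G4C2)36 libraries lay above both PA36 libraries in 9 of 32 genes (Prosbeta1, Prosbeta2, Prosbeta5, Prosbeta7, Prosalpha5, Rpt5, Rpn7, Rpn11 and Rpn12) and below in 0. Over all genes, 24.2% lay wholly above and 8.21% wholly below. Rpn12, a lid subunit, had the highest fold change, at 43.8 and 47.9 TPM in PA36 and 68.8 and 54 TPM in (G4C2)36 (log2 fold change 0.40, SE 0.22, adjusted p = 0.83 by limma), and the fold change was 0.23 without (G4C2)36 replicate 1. It was at 49 and 57.1 TPM in PR36 and 50.5 TPM in the library labelled UPF1 RNAi, so the PA36 libraries were the lowest of all. Prosalpha3, whose values are given above, was among the lowest, with a fold change of 0.00 (SE 0.23, adjusted p = 1).

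In the library labelled UPF1 RNAi the subunit genes were mostly below the PA36 mean, and none passed the test. With 1 library, the fit takes its spread from the other genotypes. Of 33 members, 0 were called, where 0.625% of all genes were. An unadjusted p below 0.05 was found for 594 of all 9287 genes and for 1 of the 32 canonical genes, Prosalpha6. Of the 32, 23 had fold changes below 0, with a median of -0.04, while the median of all genes was 0.10 and 62.1% of all genes lay above 0. The core median was -0.09, with 13 of 14 genes below 0, and the regulatory median was -0.01, with 10 of 18 below 0. Without PA36 replicate 2 these medians were 0.02 and 0.11 (all genes 0.163). With listed TPM rescaled to the same sum they were -0.01 and 0.07 (all genes 0.184). Their direction against 0 therefore depends on that library and, for regulatory genes, on the scaling. Both stayed below the median of all genes in these fits.

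The value of that library lay below both PA36 libraries in 11 of 32 genes and above both in 4, where 25.9% and 45% of all genes did. The 11 were Prosalpha3, Prosalpha4, Prosalpha5, Prosalpha6, Prosbeta2, Prosbeta5, Rpt1, Rpn5, Rpn6, Rpn10 and Rpn11, and the 4 were Rpt6, Rpn7, Rpn12 and Rpn13. The highest fold change, that of the ubiquitin receptor Rpn13, was 0.31 (SE 0.54, adjusted p = 0.97 by limma), and 0.20 without PA36 replicate 2. The 3 comparisons with PA36 share its libraries, so a high or low PA36 value moves all 3 together.

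Between the other genotypes, no member was called. The unadjusted p was below 0.05 for 0 of the 32 genes in the first of these comparisons and for 1, Prosalpha6, in each of the other 2. Over all 9287 genes it was below 0.05 for 488, 569 and 696, in the order given next. PR36 against (G4C2)36 gave 0 of 33 members called, where 0.237% of all genes were. Its median over the 32 genes was -0.12 (all genes 0.00), with 4 above 0 (12.5%, against 49.7% of all genes). PR36 against UPF1 RNAi gave 0 called against 0.431% of all genes, with a median of 0.12 (all genes 0.02). (G4C2)36 against UPF1 RNAi gave 0 called against 0.581% of all genes, with a median of 0.24 (all genes 0.01) and 29 of 32 above 0 (51.8% of all genes). The 95% interval lay within 1 of 0 for 24 of 32 genes (45.7% of all genes). Both comparisons with (G4C2)36 include its replicate 1, where 30 of the 32 genes had their highest value. Without that library the median of all genes was 0.162 for PR36 against (G4C2)36 and -0.153 for (G4C2)36 against UPF1 RNAi. The subunit medians of those fits are not given here.

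Single libraries departed from the rest in 5 subunit genes. In these, the lowest library lay more than 0.5 below every other on the log2 scale (15.6% of the 32 genes, against 11.9% of all genes tested). Prosalpha6, an alpha ring subunit on 2L (10221351 to 10222546, BDGP6), was the case in the library labelled UPF1 RNAi. It was at 45.6 and 45.3 TPM with PA36, 41.6 and 52.2 with PR36, 56.7 and 44 with (G4C2)36 and 22.8 TPM in that library. That single value was the lowest, by 0.84 on the log2 scale, and all other libraries lay close together. The fold change against PA36 was -0.96 (SE 0.28, 95% interval -1.62 to -0.31, unadjusted p = 0.01, adjusted p = 0.42 by limma), so it did not pass the test. Against (G4C2)36 the difference was 1.10 (SE 0.28, adjusted p = 0.28 by limma, (G4C2)36 higher) and against PR36 1.00 (SE 0.28, adjusted p = 0.4 by limma, PR36 higher). The gene overlaps no other annotated gene, and its level came from 1 transcript, Prosalpha6-RA, in each library.

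Rpn5, a lid subunit on 3R (5789493 to 5791569), was at 50.7 and 53.4 TPM with PA36, 58.6 and 13 with PR36, 65.8 and 51.2 with (G4C2)36 and 30.9 TPM in the library labelled UPF1 RNAi. PR36 replicate 2 was the lowest and PR36 replicate 1 was above both PA36 libraries, so the PR36 replicates lay on either side of the control. The fold change in PR36 was -0.88 (SE 0.59, 95% interval -2.28 to 0.52, adjusted p = 1 by limma). It was 0.17 without PR36 replicate 2, and -1.96 (adjusted p = 0.036 by limma) without PA36 replicate 1 and PR36 replicate 1, the libraries with high heat shock genes. Against (G4C2)36 the latter fit gave -2.08 (adjusted p = 0.0024), and leaving out PR36 replicate 1 alone also gave -2.08 (adjusted p = 0.032), against -1.03 (SE 0.59, adjusted p = 1) with all libraries. In these fits PR36 is represented by the low library alone. In the library labelled UPF1 RNAi the fold change was -0.73 (SE 0.73, adjusted p = 0.96). Rpn5 has 1 transcript and overlaps no other annotated gene.

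Rpn2, a scaffold subunit of the base with the longest coding sequence of the members, on 3R (29153524 to 29157255), was at 32.3 and 45.8 TPM with PA36, 40.1 and 42.9 with PR36, 54.5 and 21.2 with (G4C2)36 and 38.9 TPM in the library labelled UPF1 RNAi. Both the highest and the lowest value belonged to (G4C2)36, whose libraries differed by 1.32 on the log2 scale. The fold change in (G4C2)36 was the lowest of the 32 genes, at -0.17 (SE 0.42, adjusted p = 0.96 by limma). Rpn13 on 2R (13958545 to 13960404) was at 59.4 and 51.4 TPM with PA36, 31.1 and 75.4 with PR36, 79.6 and 44.7 with (G4C2)36 and 68.6 TPM in the library labelled UPF1 RNAi. In both repeat genotypes its replicates lay on either side of the PA36 libraries.

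Prosalpha1, an alpha ring subunit on 2R (7827303 to 7828678, minus strand), had the widest range, with a ratio of highest to lowest of 14.9. It was at 9.4 and 43.2 TPM with PA36, 2.9 and 15.9 with PR36, 23.5 and 17.8 with (G4C2)36 and 19.8 TPM in the library labelled UPF1 RNAi. The replicates of PA36 and of PR36 differed by over 2 on the log2 scale (-2.09 and -2.12, replicate 1 minus replicate 2). The fold change in PR36, -1.40 (SE 0.82, 95% interval -3.33 to 0.53, adjusted p = 1 by limma), was the lowest of all members and did not exceed that spread. It was -0.36 without PA36 replicate 2, -0.34 without PR36 replicate 1, -2.45 without PA36 replicate 1 and -2.46 without PR36 replicate 2, and in the first 2 of these fits Rpn5 was lower. Across 1734 bp lies a neighbour on the same strand, listed as CG30382 and named Prosalpha1R in the reference annotation, with the same coding length of 732 bases. CG30382 was listed at 0 in PA36 replicate 1 and both PR36 libraries, and was at 24.6 TPM in PA36 replicate 2, 27.4 and 16 TPM in (G4C2)36 and 20.6 TPM in the library labelled UPF1 RNAi. The sum of both was 9.4 and 67.8 TPM with PA36, 2.9 and 15.9 with PR36, 51 and 33.7 with (G4C2)36 and 40.4 TPM in the library labelled UPF1 RNAi. Adding the neighbour therefore did not even out the libraries, and the fold change of the sum in PR36 was -1.72 (adjusted p = 1 by limma). No source used here says how reads shared by 2 such genes were assigned, so the level of Prosalpha1 is uncertain.

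In some subunit genes the leading transcript was another one in a single library. Of the 14 canonical genes with more than 1 listed transcript, 9 had the same leading transcript in all libraries. In 5 it differed in at least 1 library (35.7%, against 34.7% of 5269 genes with more than 1 transcript), and in each of those 5 this was 1 library. In 3 of them, Rpn3, Rpt2 and Prosbeta7, the exchange was nearly complete, with the other transcript at 90% or more of the gene in 1 library and at 10% or less in the remaining 6. That is 21.4% of the 14, and 74 of all 5269 genes (1.4%) showed such an exchange. The exchanges were chosen after their values were seen, so these shares do not test whether subunit genes exchange transcripts more often.

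Rpn3-RA was at 38.3 TPM in PA36 replicate 1 and between 0 and 0.315 TPM in the other libraries, where Rpn3-RB was at 50.3 to 67 TPM. Rpt2-RA was at 83.2 TPM in (G4C2)36 replicate 1 and at most 0.612 TPM elsewhere, where Rpt2-RB was at 47.2 to 64.5 TPM. Prosbeta7-RA was at 61.1 TPM in PR36 replicate 1 and at most 0.0789 TPM elsewhere, where Prosbeta7-RB was at 70.9 to 96.9 TPM. In each of the 3 genes the paired transcripts encode the same coding sequence and differ in untranslated exon sequence, by 139 bases in Rpn3, 124 in Rpt2 and 189 in Prosbeta7. Each exchange occurred in 1 replicate of a genotype and not in the other, and the total of the gene was at its own extreme in that library. Rpn3 was at its lowest there by 0.39 on the log2 scale, Rpt2 at its highest by 0.35 and Prosbeta7 at its lowest by 0.15. The transcript of the single library was longer in Rpn3 (1831 against 1692 bases) and in Prosbeta7 (1215 against 1026). It was shorter in Rpt2 (1501 against 1625). TPM are per length, so the same reads give a lower value on a longer transcript. The part of length in these totals was not tested. The libraries with the exchanges were also extreme for other members. Of the 32 genes, 13 had their lowest value in PA36 replicate 1 and 7 in PR36 replicate 1, and 30 had their highest in (G4C2)36 replicate 1. In Rpn2, where (G4C2)36 replicate 2 was low, Rpn2-RB was at 4.53 TPM and Rpn2-RC led at 12.5 TPM, whereas Rpn2-RB led at 20.6 to 36.3 TPM in the other libraries. In Rpn13, Rpn13-RE stood at 24.2 TPM and Rpn13-RB at 21.8 TPM in PA36 replicate 2, a narrow lead.

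**Figure D5:**
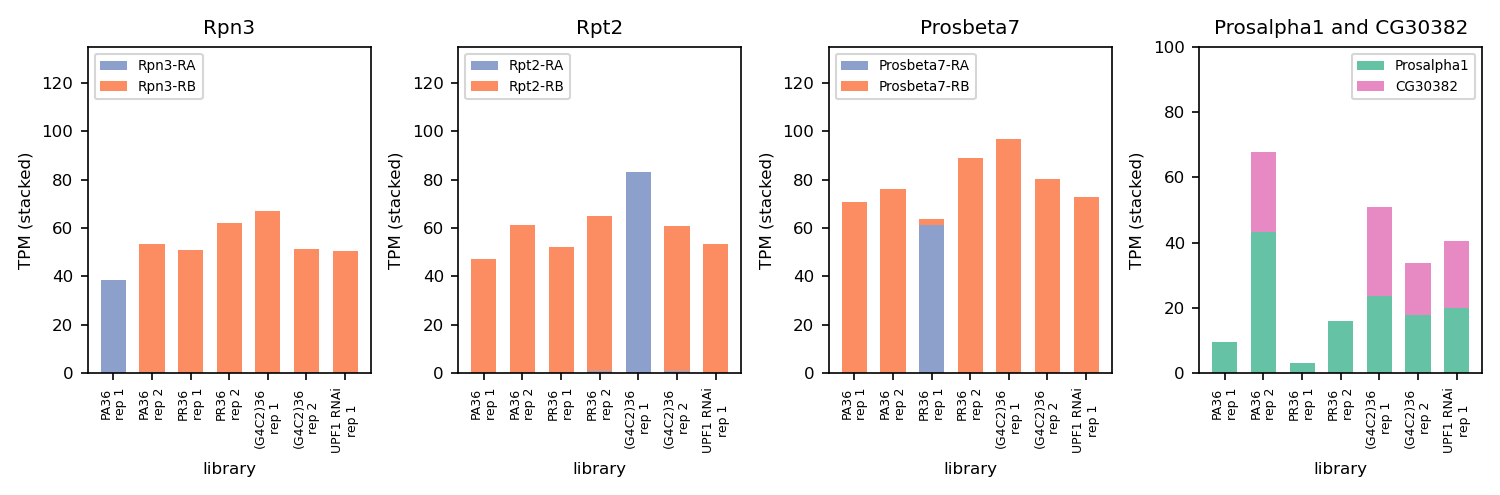
TPM (y axis, stacked bars from 0) in each library (x axis) of the listed transcripts of Rpn3, Rpt2 and Prosbeta7, and of Prosalpha1 with its neighbour CG30382. In each of the first 3 panels 1 library shows the other transcript, at the lowest total of Rpn3 and of Prosbeta7 and the highest of Rpt2, and in the last panel CG30382 is listed at 0 in PA36 replicate 1 and both PR36 libraries.

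Genes that assemble, activate or feed the proteasome showed no called change. The 20 names fixed for this list gave 19 listed genes, all tested. In the 6 comparisons, 315 to 696 of all 9287 genes had an unadjusted p below 0.05 by limma. Of the 19, 0 had one in any comparison and 0 were called. Their median fold changes against PA36 were 0.09 for PR36, 0.19 for (G4C2)36 and 0.10 for UPF1 RNAi, where those of all genes were 0.13, 0.13 and 0.10. Pomp, the chaperone of core assembly, was at 54.4 and 59.6 TPM with PA36, 59.6 and 65.4 with PR36, 69.9 and 56.5 with (G4C2)36 and 61.3 TPM in the library labelled UPF1 RNAi, a level like that of the subunits. Sem1, a small lid subunit whose name lies outside the rule, was at 43.1 and 55.4 TPM with PA36, 41.7 and 64.7 with PR36, 59.6 and 55.6 with (G4C2)36 and 55.4 TPM in the library labelled UPF1 RNAi. The transcription factor cnc was at 62 and 71.8 TPM with PA36, 69.8 and 69.2 with PR36, 47.5 and 75.8 with (G4C2)36 and 72.3 TPM in the library labelled UPF1 RNAi. Its lowest value was in (G4C2)36 replicate 1, where the subunits were highest.

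The highest fold changes of that list belonged to Rad23 and maf-S. Rad23, which shuttles ubiquitinated proteins to the proteasome, was at 59.7 and 61.1 TPM with PA36, 66.8 and 96.8 with PR36, 97 and 80.5 with (G4C2)36 and 90.5 TPM in the library labelled UPF1 RNAi. All 5 libraries lay above PA36, yet the fold changes of 0.41 (SE 0.24, adjusted p = 1), 0.54 (SE 0.24, adjusted p = 0.76) and 0.58 (SE 0.30, adjusted p = 0.87), in that order by limma, did not pass the test. For maf-S, the small Maf partner of cnc, the fold change in PR36 was 0.49 (SE 0.26, adjusted p = 1). The lowest were rngo in PR36 at -0.30 (SE 0.23), cnc in (G4C2)36 at -0.15 (SE 0.26) and the proteasome activator REG in UPF1 RNAi at -0.41 (SE 0.34), with adjusted p of 1, 0.94 and 0.96 by limma.

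Ubiquitin genes and ligases also had 0 of 28 tested genes called in each comparison, with medians of 0.17, 0.18 and 0.18 against PA36. The unadjusted p against PA36 by limma was below 0.05 in 1, 2 and 2 of the 28. It was below 0.05 in 315, 627 and 594 of all 9287 genes. Ubi-p5E, a polyubiquitin gene, was at 101 and 115 TPM with PA36, 114 and 115 with PR36, 219 and 197 with (G4C2)36 and 208 TPM in the library labelled UPF1 RNAi. The (G4C2)36 and UPF1 RNAi libraries stood apart from the other 4, with fold changes against PA36 of 0.94 (SE 0.19, unadjusted p = 0.0016, adjusted p = 0.18) and 0.94 (SE 0.23, unadjusted p = 0.0049, adjusted p = 0.29) by limma, neither of which passed the test. Ubc6, a ubiquitin-conjugating enzyme, was at 132 and 125 TPM with PA36, 230 and 259 with PR36, 195 and 164 with (G4C2)36 and 148 TPM in the library labelled UPF1 RNAi. PR36 was the highest genotype, with a fold change of 0.92 (SE 0.20, unadjusted p = 0.0021, adjusted p = 0.35 by limma). RpS27A, a ubiquitin and ribosomal protein fusion gene, was at 2390 and 2220 TPM with PA36, 1990 and 2230 with PR36, 1860 and 1500 with (G4C2)36 and 1520 TPM in the library labelled UPF1 RNAi, the lowest fold change of the list in (G4C2)36 (-0.46, SE 0.20, adjusted p = 0.74) and in UPF1 RNAi (-0.59, SE 0.24, adjusted p = 0.76). In PR36 the lowest was Cul1, a ligase scaffold, at -0.34 (SE 0.32, adjusted p = 1).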

How the data were processed

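The authors deposited 1 table of TPM for 26309 transcripts. The submitters' processing notes name BDGP6 as the build and HISAT2 2.1, HISAT and bcl2fastq as tools. No source used here names the quantifier or says whether it used strand. The header holds 10 names and the lines 11 cells. Libraries were assigned by reading the names from the left, which left 1 unnamed value column unused, and all library values depend on that. The second library of UPF1 RNAi is not analysed here. Transcripts were summed per gene. TPM carry no depth, so counting error could not be given.

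The 9287 genes averaging 1 TPM or more over 7 libraries were fitted as log2(TPM + 1) in limma 3.58.1 (R 4.3.3), with a trend, 1 coefficient per genotype, 3 residual and 4.1 prior degrees of freedom, two-sided, with Benjamini-Hochberg adjustment. The scale understates fold changes of low genes. The model was tested on simulated data. Summaries used Python 3.11.15 with pandas 2.3.3 and matplotlib 3.10.9. Coordinates come from Ensembl release 115, which names 48 genes that match the rule, of which 43 are listed (1 under the name CG30382) and 5 are not analysed here. Of the 32 canonical genes, 29 have every reference transcript listed (not Rpn6, Rpn8 and Rpn9) and 16 overlap another gene.

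Members and gene lists were chosen with earlier results of these data known. Values in every library are given for the highest and lowest gene of each ring and of the Rpn genes, the 2 highest and 2 lowest fold changes of each comparison with PA36, the members with the largest replicate differences, the catalytic subunits and paralogs with a mean of at least 1 TPM. Other named genes were chosen after their values were seen, as were the transcript exchanges. Hemocyte markers summed to 80.4 to 220 TPM, and 0 of 6 female germline markers are analysed here. Alternatives covered the pseudocount, the filter, rescaling, the trend, the libraries in the fit, a replicate block, and leaving out replicates one at a time.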

Additional observations from a re-analysis of the deposited data

How the results depend on the processing

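Counts of called members stayed at 0 in every comparison and alternative, except that Rpn5 was called without the 2 libraries with high heat shock genes (1 member in PR36 against PA36 and 1 in PR36 against (G4C2)36) and without PR36 replicate 1 (range over left-out replicates 0 to 1, PR36 against (G4C2)36). The first of these fits has 1 residual degree of freedom and called 198 genes in PR36 against PA36, where 18 were called with all libraries. The core minus regulatory median fold change, -0.07 in PR36, ranged from -0.10 to 0.03 with a replicate left out and was 0.05 without the libraries with high heat shock genes. In (G4C2)36 it was -0.05, with a range of -0.12 to 0.00, and -0.02 without those libraries. In UPF1 RNAi it was -0.08, with a range of -0.10 to -0.05, and -0.05 without those libraries. The regulatory median in (G4C2)36 ranged from 0.02 to 0.44. Rescaling by the median of ratios takes the median of all genes against PA36 from 0.13, 0.13 and 0.10 to 0.007, 0.014 and 0.014 and leaves core minus regulatory at -0.07, -0.05 and -0.08. Under it the core and regulatory medians were -0.09 and -0.02 in PR36, 0.04 and 0.09 in (G4C2)36 and -0.19 and -0.11 in UPF1 RNAi.

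Deviations of same-numbered libraries correlated across genes at 0.10 (PA36 and PR36), -0.07 (PA36 and (G4C2)36) and -0.08 (PR36 and (G4C2)36). Whether same-numbered libraries shared a batch was not tested, and PA36 replicate 1 and PR36 replicate 1 both had high heat shock genes. With a replicate block, 0 members were called in every comparison, and core minus regulatory in UPF1 RNAi was -0.05.

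Among single genes, Rpn5 in PR36 ranged from -1.92 to 0.17 against PA36 and from -2.08 to 0.01 against (G4C2)36 with a replicate left out. In (G4C2)36 against PA36, Rpn2 ranged from -0.83 to 0.49 and Prosalpha3 from -0.25 to 0.24, and Prosalpha3 was 0.02 without the libraries with high heat shock genes. The rescaling of listed TPM to the same sum, the sum of Prosalpha1 with CG30382 and the median without Prosalpha1 were chosen after seeing the data. Each value rests on 2 libraries, or 1 for UPF1 RNAi, of unknown depth.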
